A study of Mus musculus with 36 samples.

Results

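The 8 genes described here encode isozymes of glycolysis that liver and other cells use in different measure, together with one regulator: the hexokinases Hk1, Hk2 and Hk3, the regulator Gckr, the aldolases Aldoa and Aldoc, and the pyruvate kinases Pkm2 and Pklr. They were chosen by gene symbol, and all 8 were found among the 21889 symbols of the expression table. The table held liver RNA of 36 male C57BL/6 mice (substrain C57BL/6J in the study's methods), for which no transgene or treatment is named, with 3 mice at each of 12 ages. These were the fetal age GD17.5 (late gestation, labelled as day -2 from birth), Day 0 (at birth, before suckling), Days 1, 3, 5, 10, 15 and 20 (suckling) and Days 25, 30, 45 and 60 (after weaning, on standard chow). Livers from Day 3 on were taken at a fixed morning hour, whereas Days 0 and 1 were timed from birth. The mice of each age were separate animals drawn from several litters.

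Glycolysis begins with phosphorylation of glucose by a hexokinase and ends with transfer of phosphate from phosphoenolpyruvate to ADP by a pyruvate kinase. Hexokinases 1, 2 and 3 have a high affinity for glucose and are inhibited by their product, glucose 6-phosphate. Gckr is a regulatory protein of the hepatocyte that restrains glucose phosphorylation. Aldolase A is the muscle and red cell form and aldolase C the brain form. The Pkm gene, listed here as Pkm2, gives the M1 and M2 forms by alternative splicing, and Pklr gives the red cell (R) and liver (L) forms from different start sites. Fetal liver is also a site of blood formation, so that its RNA comes from hepatocytes and from blood-forming cells.

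In the GENCODE M1 annotation of NCBIM37 the hexokinase genes span chr10:61731603-61842656 (Hk1, minus strand), chr6:82675019-82724448 (Hk2, minus) and chr13:55107346-55122746 (Hk3, minus), and Gckr spans chr5:31599954-31629673 (plus). The aldolase genes span chr7:133938748-133944265 (Aldoa, minus) and chr11:78136470-78141283 (Aldoc, plus), and the pyruvate kinase genes chr9:59504383-59527182 (Pkm2, plus) and chr3:88940064-88950706 (Pklr, plus). Pklr and Hk1 have alternative start sites, which a single FPKM value per gene adds together, and their upstream sequences are shown. Aldoa, Aldoc and Pkm2 also had more than 1 start site and are not shown. A window of Aldoa held a CACC box as well, so the sequences printed are a selection. Each printed sequence is the 250 bases before a RefSeq start (table built on GRCm38.p6). It was placed by exact match on NCBIM37 (mm9), the build of the expression table. The upstream Pklr window lay at chr3:88939814-88940063 (plus strand) and precedes the start of the R form, and the downstream window lay at chr3:88940295-88940544 (plus strand) and precedes the start of the L form, 481 bases away. The Hk1 windows lay at chr10:61842657-61842906 and chr10:61803170-61803419 (minus strand). Capitals mark matches, on either strand, to a GATA site (AGATAA) or a CACC box (CCACACCC), which are bound by erythroid factors among others.
Pklr upstream start: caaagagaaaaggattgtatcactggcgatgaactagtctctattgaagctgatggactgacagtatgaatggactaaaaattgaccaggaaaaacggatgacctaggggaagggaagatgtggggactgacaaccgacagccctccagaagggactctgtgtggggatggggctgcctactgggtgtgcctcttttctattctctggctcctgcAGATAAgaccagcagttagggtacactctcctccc
Pklr downstream start: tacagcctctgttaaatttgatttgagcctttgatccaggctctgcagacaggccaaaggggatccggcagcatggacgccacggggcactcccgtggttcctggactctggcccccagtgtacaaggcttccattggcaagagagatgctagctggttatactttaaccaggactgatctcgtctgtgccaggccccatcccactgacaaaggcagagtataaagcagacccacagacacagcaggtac
Hk1 upstream start: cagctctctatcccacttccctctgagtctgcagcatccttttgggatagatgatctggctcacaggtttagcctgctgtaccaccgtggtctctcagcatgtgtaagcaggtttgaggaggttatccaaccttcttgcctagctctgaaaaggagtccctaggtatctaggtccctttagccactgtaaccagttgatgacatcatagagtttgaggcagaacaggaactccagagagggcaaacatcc
Hk1 downstream start: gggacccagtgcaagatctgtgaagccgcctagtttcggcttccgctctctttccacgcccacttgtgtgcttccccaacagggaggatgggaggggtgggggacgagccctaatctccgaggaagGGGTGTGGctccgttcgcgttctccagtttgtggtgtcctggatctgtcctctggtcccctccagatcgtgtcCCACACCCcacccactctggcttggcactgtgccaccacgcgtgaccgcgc
The Pklr upstream window held 1 GATA site, 35 bases before the start, and the Hk1 downstream window held 2 CACC boxes, 124 and 51 bases before the start. The other windows printed held neither, which says only that these letters were not in these bases. All 8 members had windows, 14 in all. A GATA site was in 2 of them (Pklr and Gckr), a CACC box in 2 (Hk1 and Aldoa), an HNF1 half-site (GTTAAT) in 1 (Gckr) and an E-box (CACGTG) in 0. Of 32851 windows of the same length, 9.99% held the GATA site, 3.2% the CACC box, 6.43% the HNF1 half-site and 6.02% the E-box. The motifs did not overlap one another in the member windows, and a match is not evidence of binding.

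Expression was given as FPKM, fragments counted per kilobase of transcript and scaled to the total mapped, so that levels of different genes are compared per length. Summed FPKM was 353712 to 450597 per mouse, and mice of one age correlated at r = 0.971 to 0.998 (Pearson, log2(FPKM + 1), across genes, which are not independent replicates). Counts were not used here. Steps in the low values put the relative depth of the libraries at 0.893 to 1.13, around an estimated 85700000 fragments. The tissue label was met in all mice by the 8 hepatocyte markers (Alb, Apoa2 and Ttr highest), whose summed FPKM was 7608 to 8247 at GD17.5 and at least 29782 at every later age. Markers of skeletal muscle (9 genes, Acta1, Mylpf and Ckm highest) summed to 1327 FPKM in 1 mouse of Day 0 (replicate 1) and to 90.8 in 1 mouse of Day 10, and to at most 15.2 in the 34 others.

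Ages were compared by limma, which fitted 1 mean for each age to log2(FPKM + 1) of all 36 mice, with Benjamini-Hochberg adjustment over the 11149 genes whose mean reached 1 FPKM at some age. A gene was called at an adjusted p under 0.05. Fold changes on this scale understate changes of low genes. Hk2 did not reach that level at any age, so 7 of the 8 members were tested. At some age each of the 7 was called against Day 60, as were 90.7% of all genes tested. At GD17.5, 6 of the 7 were higher than at Day 60 (56.4% of all genes) and Gckr was lower (18.6% of all genes). Of the 6, Aldoc (0.33) turned to -0.21 with upper quartile scaling and lost its call with TPM scaling (0.26, adjusted p = 0.0918) and without GD17.5 replicate 1, Day 60 replicate 1 or Day 60 replicate 2. At Day 25 Pkm2 was the one member called against Day 60, and at Days 30 and 45 there was none. Of the 11149 genes tested, 827 were called at Day 25, 397 at Day 30 and 26 at Day 45. At an unadjusted p under 0.05 in limma, Aldoc and Pkm2 passed at Day 30 and no member at Day 45.

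**Figure D1:**
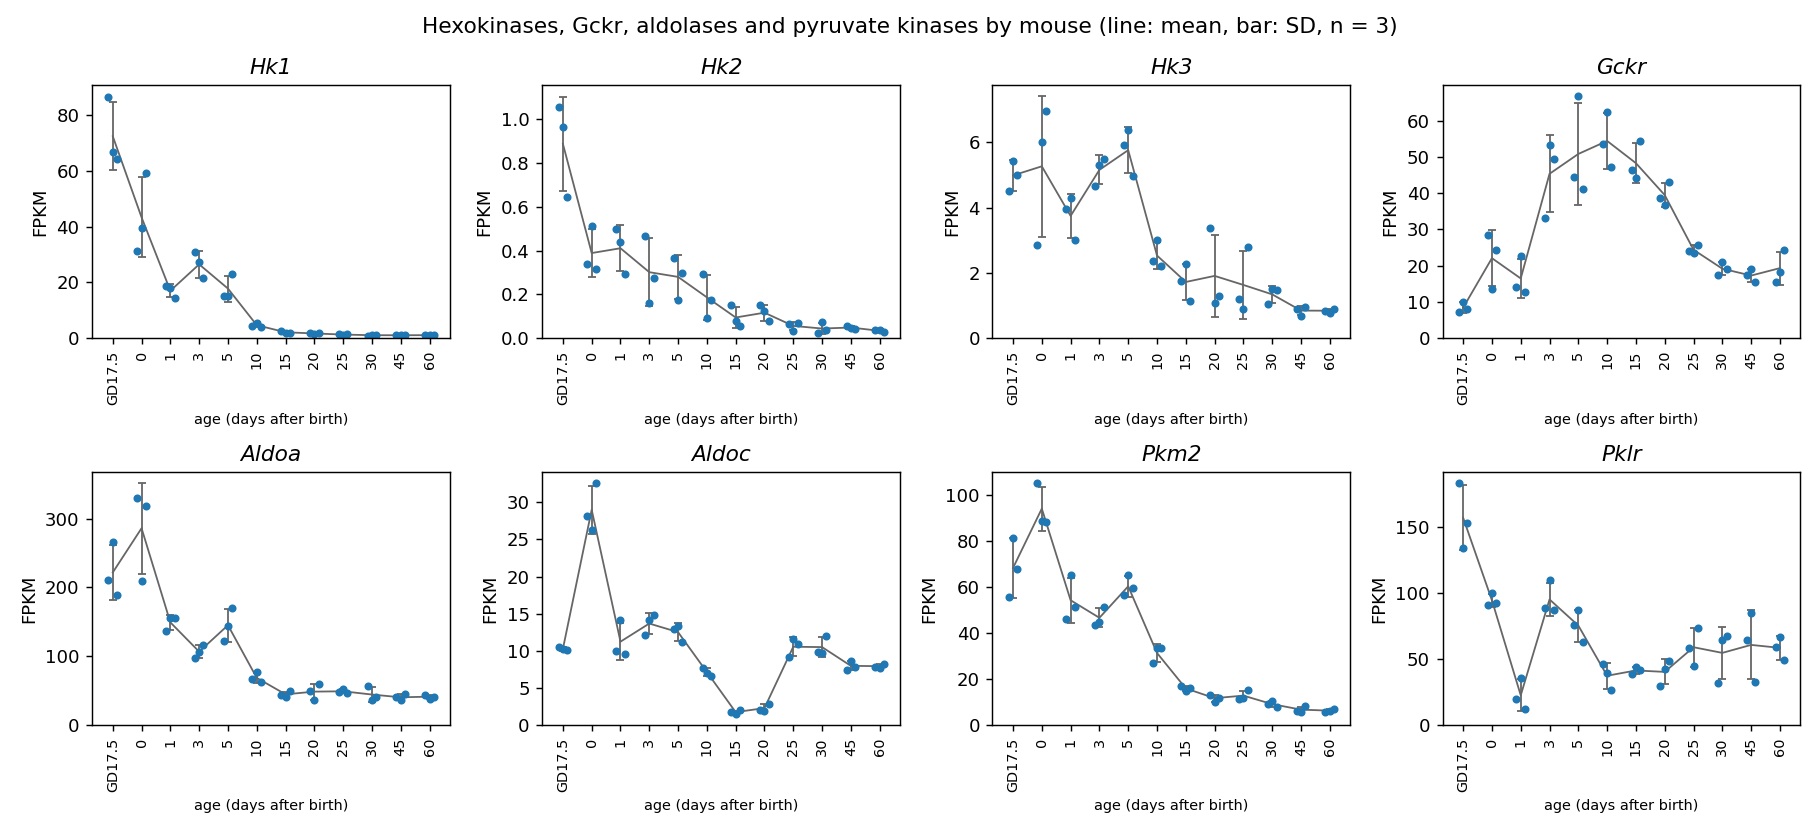
FPKM of the 8 genes (vertical axes, linear, a separate scale for each gene) in each mouse (points) at the 12 ages (horizontal axes, evenly spaced and not to scale), with the mean and SD of 3 mice. Hk1 fell from 64.1 to 86.5 FPKM at GD17.5 to at most 1.36 from Day 30 on, Gckr was highest at Day 10, Aldoc dropped to 1.53 to 2.89 at Days 15 and 20 and rose again at Day 25, and Pklr was lowest at Day 1.

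Hk1, the hexokinase of red cells, brain and most other tissues, was expressed at 86.5, 66.6 and 64.1 FPKM in the 3 mice of GD17.5. At Day 0 it was 31.4, 39.4 and 59.3 FPKM, at Day 1 18.8, 18 and 14.3 FPKM, and at Day 3 30.8, 27.2 and 21.5 FPKM. The mice of Day 3 were thus all above those of Day 1, in an otherwise downward course. By Day 10 Hk1 was at 4.22 to 5.40 FPKM, and at Day 60 it was 1.25, 1.06 and 1.07 FPKM. Its highest age mean was 66.5 times its lowest (72.4 ± 12.3 FPKM before birth and 1.09 ± 0.048 at Day 45, SD, n = 3). In the order of its age means, the mice of neighbouring ages did not overlap between GD17.5 and Day 0, Day 0 and Day 3, Day 1 and Day 10, and Day 10 and Day 15, and overlapped at the other steps. The difference of GD17.5 from Day 60 was 5.10 ± 0.19 (log2, SE; limma adjusted p = 1.31e-19). Hk1 fell by 0.76 ± 0.19 from GD17.5 to Day 0 (adjusted p = 0.00175) and by a further 1.26 ± 0.19 from Day 0 to Day 1 (adjusted p = 1.63e-05).

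The erythroid markers followed a similar course (7 of 9 listed symbols were found, with Slc4a1, Alas2 and Klf1 highest). Their sum was 2905 to 3640 FPKM at GD17.5, 556 to 681 at Day 1, 979 to 1211 at Day 3 and 66.9 to 73.5 at Day 60, so that Day 3 was again above Day 1. At Day 60 nearly all of the sum was Alas2 (mean 68.1 FPKM), and Slc4a1 of the same list was at a mean of 0.211 FPKM. In bulk RNA, fewer cells of a type and less RNA per cell cannot be told apart, and the part of erythroid cells in the Hk1 values was not tested.

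Hk2, the insulin-responsive hexokinase of muscle and fat, was low throughout. Its values were 1.05, 0.962 and 0.646 FPKM at GD17.5, 0.338, 0.514 and 0.315 at Day 0, and 0.0375, 0.0380 and 0.0269 at Day 60. Its fetal and Day 60 means stood in a ratio of 26, and the 3 fetal mice were all above the mice of every other age. The lowest mouse would correspond to about 10.9 fragments on the longest transcript (5513 bases). Without the filter on low values, the difference of GD17.5 from Day 60 was 0.86 on the log2(FPKM + 1) scale (limma adjusted p = 3.33e-10). The sum of 7 markers of dividing cells (of 8 listed, with Plk1, Aurkb and Cdk1 highest) also was highest at GD17.5 (163 to 226 FPKM) and was 0.663 to 1.04 FPKM at Day 60. The part of dividing cells was not tested.

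Hk3, a hexokinase found mainly in white blood cells, stayed between 2.84 and 6.95 FPKM from GD17.5 to Day 5. It was 5.93, 6.38 and 4.98 FPKM at Day 5, 2.37, 3.02 and 2.22 FPKM at Day 10 and 0.846, 0.783 and 0.905 FPKM at Day 60. The Day 5 and Day 10 mice did not overlap. At Days 20 and 25 single mice stood above the others, with 3.37 FPKM against 1.07 and 1.30, and 2.81 FPKM against 1.21 and 0.884. Perinatal ages (GD17.5 to Day 5) exceeded the ages after weaning (Days 25 to 60) by 1.47 ± 0.12 (log2, SE; limma adjusted p = 1.55e-12).

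Among hexokinases 1 to 3, Hk1 held most of the summed FPKM before birth and shared it with Hk3 after weaning. The share of Hk1 was 92.4% ± 1.4 (SD, n = 3) at GD17.5, still 63.3% ± 0.55 at Day 10, then 43.4% ± 5.1 at Day 30 and 56.1% ± 2.6 at Day 60. Hk3 held 6.51% ± 1.4, 34.1% ± 1.2, 54.9% ± 5.4 and 42.1% ± 2.8 at these ages. No test was made on the shares, and the mean FPKM of Hk3 itself was lower at Day 30 (1.35) than before birth (4.99). Hkdc1, a further hexokinase-like gene left out of these shares, was at 4.45 to 5.04 FPKM at GD17.5 and at most 0.210 FPKM from Day 1 on.

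**Figure D2:**
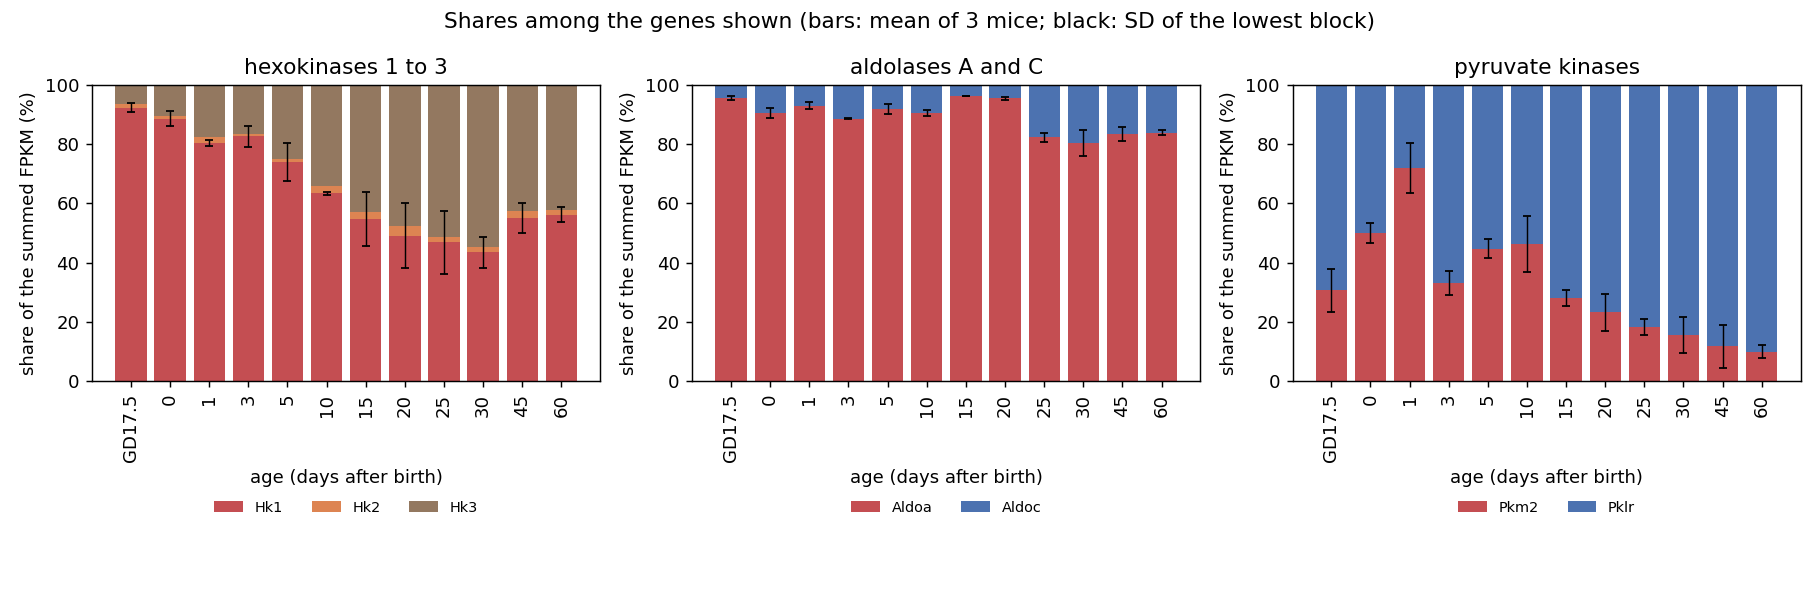
Share of the summed FPKM (vertical axes, percent) of hexokinases 1 to 3, of aldolases A and C and of both pyruvate kinases held by each gene at the 12 ages (horizontal axes, not to scale); bars are means of 3 mice and black lines the SD of the share of the lowest block. The mean share of Hk1 was 92.4% at GD17.5 and lowest at Day 30 (43.4%), that of Aldoc was 3.74% at Day 15 and 17.7% at Day 25, and that of Pklr was lowest at Day 1 (28.1%) and highest at Day 60 (90.1%).

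Gckr, the regulatory protein, was at 7.19, 10.0 and 8.04 FPKM at GD17.5, and at birth it was at 28.5, 13.6 and 24.2 FPKM. It was 53.5, 62.5 and 47.2 FPKM at Day 10, its highest age, 38.6, 36.8 and 43.1 FPKM at Day 20 and 24, 23.5 and 25.7 FPKM at Day 25. The mice of Days 20 and 25 did not overlap, nor did those of GD17.5 and Day 0. Gckr rose by 1.24 ± 0.23 (log2, SE) from GD17.5 to Day 0 (limma adjusted p = 5.16e-05). From Day 20 to Day 25 it was lower by a log2 difference of -0.67 ± 0.23, which did not pass (adjusted p = 0.0720, range 0.0380 to 0.224 over the alternatives, 0.0380 without Day 0 replicate 2 and 0.0422 with upper quartile scaling). Suckling ages (Days 1 to 20) exceeded the ages after weaning by 0.95 ± 0.10 (adjusted p = 1.86e-09).

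Aldoa, the ubiquitous aldolase, was at 210, 266 and 189 FPKM at GD17.5 and at 330, 210 and 319 FPKM at Day 0. It was 136, 155 and 156 FPKM at Day 1, 97.5, 107 and 116 FPKM at Day 3 and 44.2, 38.3 and 41.3 FPKM at Day 60. The mice of GD17.5 and Day 0 overlapped, and both ages were above Day 1. Aldoa fell by 0.91 ± 0.18 (log2, SE) from Day 0 to Day 1 (limma adjusted p = 0.000367). The Day 0 mouse with muscle markers (replicate 1) held 330 FPKM, close to one of the others, and the part of muscle RNA was not tested beyond leaving this mouse out, which kept the call at Day 1. The rise from GD17.5 to Day 0 did not pass (0.35 ± 0.18, adjusted p = 0.0967), but did without GD17.5 replicate 2 (0.49, adjusted p = 0.0400) or without Day 0 replicate 2 (0.56, adjusted p = 0.0133) and with upper quartile scaling (0.62, adjusted p = 0.0143).

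Values of Aldoa are uncertain to the extent that reads were shared with its near-identical retrogenes Aldoart1 and Aldoart2, which at Day 0 averaged 17.3 and 10.4 FPKM beside 286 FPKM of Aldoa.

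Aldoc, the brain aldolase, had a course of its own with a gap late in suckling. Its values were 10.5, 10.2 and 10.0 FPKM at GD17.5, then 28.1, 26.3 and 32.6 FPKM at Day 0 and 9.91, 14.1 and 9.63 FPKM at Day 1. They were 7.75, 7.04 and 6.61 FPKM at Day 10, 1.71, 1.53 and 1.97 FPKM at Day 15 and 2.06, 1.90 and 2.89 FPKM at Day 20. At Day 25 they were 9.10, 11.6 and 10.9 FPKM, and at Day 60 7.87, 7.73 and 8.19 FPKM. All mice of Days 15 and 20 were below all mice of the other ages, and all mice of Day 0 above them. Aldoc rose by 1.41 ± 0.13 (log2, SE) from GD17.5 to Day 0 (limma adjusted p = 1.54e-09) and fell by 1.31 ± 0.13 from Day 0 to Day 1 (adjusted p = 1.88e-08).

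Across weaning, from Day 20 to Day 25, Aldoc rose by 1.82 ± 0.13 (log2, SE; limma adjusted p = 3.91e-11). It was the 1 of 7 members called at this step and 0 were called lower, where 3.94% of all genes were called higher and 3.26% lower. With each mouse left out in turn the rise was 1.74 to 1.95. Of the summed FPKM of Aldoa and Aldoc, Aldoc held 4.51% ± 0.43 (SD, n = 3) at Day 20 and 17.7% ± 1.5 at Day 25, while Aldoa was at 36.8 to 60.1 FPKM at Day 20 and 46.9 to 52.7 FPKM at Day 25. The gain of Aldoc thus came without a called change of Aldoa (0.04 ± 0.18, adjusted p = 0.953).

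Pkm2, the pyruvate kinase gene of most tissues outside liver, was at 55.6, 81.7 and 67.9 FPKM at GD17.5, and at birth it was at 105, 89.0 and 88.5 FPKM. At Day 5 it was 56.4, 65.3 and 59.6 FPKM, at Day 10 27.1, 33.4 and 33.7 FPKM, and at Day 60 5.60, 6.26 and 6.94 FPKM. All mice of Day 0 were above those of the other ages, and the highest age mean was 15.0 times the lowest. Pkm2 rose by 0.47 ± 0.15 (log2, SE) from GD17.5 to Day 0 (limma adjusted p = 0.0115). That call was lost without GD17.5 replicate 1 (0.33, adjusted p = 0.0996) and without Day 0 replicate 1, the mouse with muscle markers (0.39, adjusted p = 0.0587). It was lower at Day 1 than at Day 0 by a log2 difference of -0.79 ± 0.15 (adjusted p = 0.000288) and higher at Day 25 than at Day 60 by 0.92 ± 0.15 (adjusted p = 0.000108). The single row does not separate the M1 and M2 forms.

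The neutrophil markers (10 of 11 listed symbols found, with S100a8, S100a9 and Ngp highest) summed to 2025 to 3844 FPKM at GD17.5, 4381 to 4633 at Day 0, 2040 to 2554 at Day 5, 335 to 751 at Day 10 and 2.58 to 6.26 at Day 60. Their highest age, like that of Pkm2, was Day 0. Within the Day 60 sum, S100a8 and Ngp were at means of 0.803 and 0.093 FPKM. Mean Pkm2 at that age was 6.27 FPKM. Macrophage markers (8 of 9 found, with Cd5l, Csf1r and Clec4f highest) summed to between 64.1 and 245 FPKM over all mice. Their highest age, like that of Hk3, was Day 5 (206 to 245 FPKM), and at Day 60 they were at 66.5 to 86.4 FPKM. The single mice high in Hk3 at Days 20 and 25 held sums of 144 and 125 FPKM, the highest of each age. Megakaryocyte markers (5 of 5, with Ppbp, Pf4 and Itga2b highest) summed to 227 to 260 FPKM at the fetal age and 1.56 to 1.88 FPKM at Day 60. The part of these cells in the Pkm2 and Hk3 values was not tested.

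**Figure D3:**
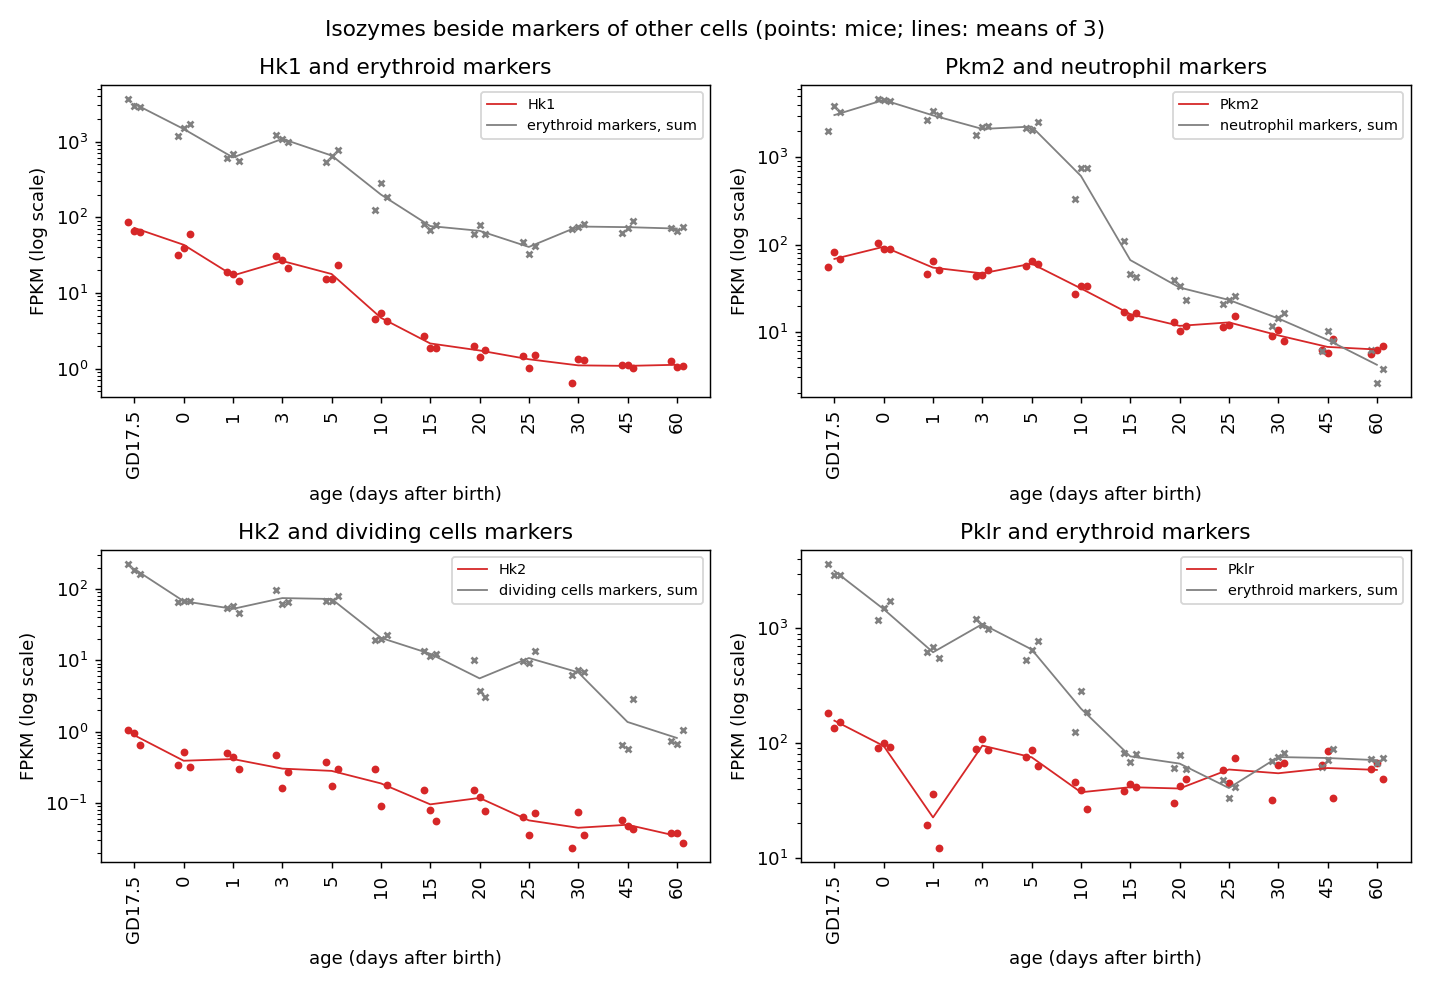
FPKM (vertical axes, log scale) of Hk1, Pkm2, Hk2 and Pklr in each mouse (red circles) and summed FPKM of the erythroid, neutrophil or dividing cell markers in the same mice (grey crosses) at the 12 ages (horizontal axes, not to scale); lines join means of 3 mice. Hk1 and the erythroid sum both were higher at Day 3 than at Day 1, Pkm2 and the neutrophil sum both were highest at Day 0, and Pklr stayed at 26.8 FPKM or more from Day 10 on while the erythroid sum was at most 88.3 FPKM from Day 15 on.

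Pklr, the pyruvate kinase gene of liver and red cells, was at 183, 134 and 153 FPKM at GD17.5 and at 91.0, 99.8 and 92.2 FPKM at Day 0. At Day 1 it was 19.5, 35.8 and 12.2 FPKM, and at Day 3 88.5, 110 and 87.1 FPKM. The Day 1 mice lay below all mice of Days 0, 3 and 5. From Day 10 on the mice ranged from 26.8 to 84.7 FPKM, with values of 32.9 to 84.7 FPKM at Day 45 alone. Pklr fell by 2.15 ± 0.31 (log2, SE) from Day 0 to Day 1 (limma adjusted p = 7.49e-06; from -2.54 to -1.79 with each mouse left out), and at Day 1 it was below Day 60 by a log2 difference of -1.45 ± 0.31 (adjusted p = 0.000192). The erythroid sum also was lower at Day 1 than on the days around it, but by less than Pklr. Mean Pklr at Day 1 was 22.5 FPKM against 94.3 at Day 0 and 95.0 at Day 3, where the mean erythroid sums were 618, 1468 and 1088 FPKM. The part of red cell precursors in the Pklr values was not tested, and the row does not separate the R and L forms whose start sites are printed above.

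A ratio within a mouse does not depend on how its library was scaled, and no test was made on it. Within a mouse, Pklr exceeded Pkm2 at GD17.5 (ratio 1.64 to 3.29), was level with it at Day 0 (0.864 to 1.12) and below it at Day 1 (0.236 to 0.550). The ratio was 1.70 to 2.43 at Day 3, then lower again at Day 5 (1.06 to 1.34) and Day 10 (0.794 to 1.70). It was 2.29 to 2.99 at Day 15, 2.28 to 4.17 at Day 20 and 3.72 to 5.12 at Day 25. At Days 30 and 45 it ranged widely (3.51 to 8.59 and 3.99 to 14.8) and overlapped Day 20, and at Day 60 it was 7.04 to 10.7. On the log2 scale the mean was 0.23 over the perinatal ages (age means from -1.40 to 1.2) and 2.75 over the ages after weaning (2.18 to 3.21), a difference of -2.52. The pooled SD between mice of one age was 0.494. The increase after Day 10 came with a fall of Pkm2, from 31.4 to 6.27 FPKM as means of Days 10 and 60, and with Pklr at 37.3 and 58.4 FPKM.

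**Figure D4:**
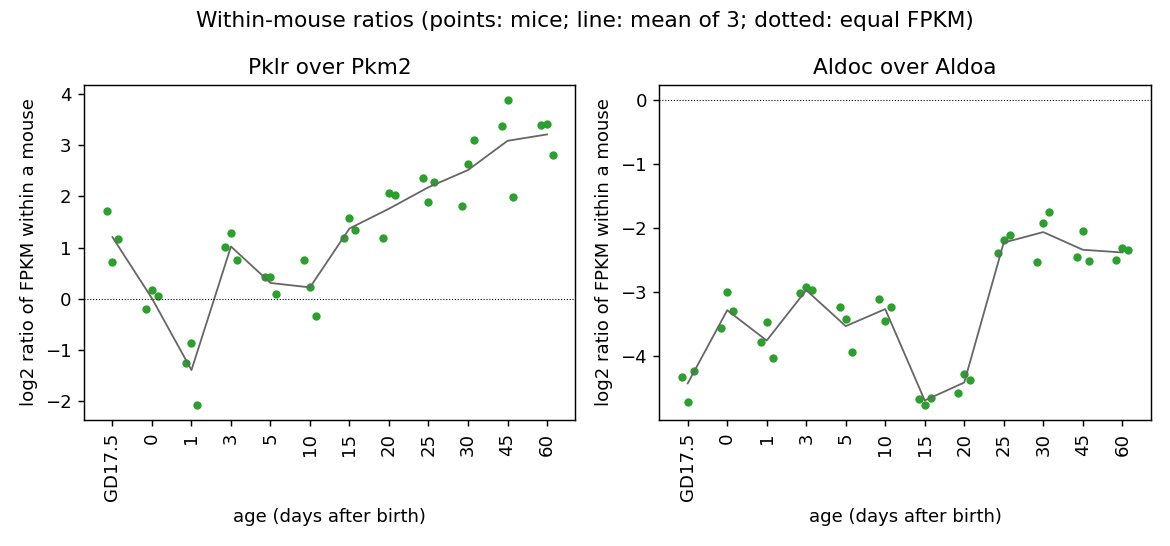
Log2 ratio of the FPKM of Pklr to Pkm2 and of Aldoc to Aldoa within each mouse (points; vertical axes, separate scales) and its mean over 3 mice (line) at the 12 ages (horizontal axes, not to scale); the dotted line marks equal FPKM. The Pklr to Pkm2 ratio dipped to a mean of -1.40 at Day 1, and the Aldoc to Aldoa ratio went from -4.41 at Day 20 to -2.22 at Day 25.

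Between perinatal ages and ages after weaning, 6 of the 7 members were higher and 0 lower, where 70.2% of all genes were called higher and 15.5% lower and the median log2 difference of all genes was 0.54 (0.14 with upper quartile scaling of the libraries). Hk1 (3.84 ± 0.09, limma adjusted p = 4.37e-25), Pkm2 (2.77 ± 0.07, adjusted p = 3.99e-24) and Aldoa (1.94 ± 0.09, adjusted p = 1.09e-18) were well above that median. Aldoc (0.58 ± 0.06, adjusted p = 1.39e-09) and Pklr (0.39 ± 0.15, adjusted p = 0.0166) were near it, and with upper quartile scaling their differences were -0.0035 and -0.24 and no longer called. The call of Pklr was also lost with TPM scaling (0.27, adjusted p = 0.110) and without Day 45 replicate 3 (0.30, adjusted p = 0.0501). Gckr did not pass (0.21 ± 0.11, adjusted p = 0.0667), and with upper quartile scaling it was lower at perinatal ages (-0.40, adjusted p = 0.000499). The median over the 7 tested members was 1.47.

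Between suckling ages and ages after weaning, 5 of the 7 members were higher and Aldoc was lower (-0.44 ± 0.06, limma adjusted p = 1.70e-07), where 68.1% of all genes were higher and 11.7% lower, and the median was 0.39 for all genes and 0.95 for the members. Pklr did not pass (-0.30 ± 0.14, adjusted p = 0.0597), and it passed as lower with upper quartile or TPM scaling (-0.70 and -0.36). From GD17.5 to Day 0, 3 members rose (Aldoc, Gckr and Pkm2) and Hk1 fell, where 13.1% of all genes rose and 41.4% fell. Pklr did not pass at this step (-0.72, adjusted p = 0.0543), although its mice of the 2 ages did not overlap, and it passed as lower when any one of 5 mice of Days 1, 30 and 45 was left out (adjusted p from 0.0342 to 0.0455). From Day 0 to Day 1, 0 members rose and 5 fell (Pklr, Aldoc, Hk1, Aldoa and Pkm2), where 23.7% of all genes rose and 7.88% fell and the median of all genes was 0.19. The median over the members at this step was -0.91.

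**Figure D5:**
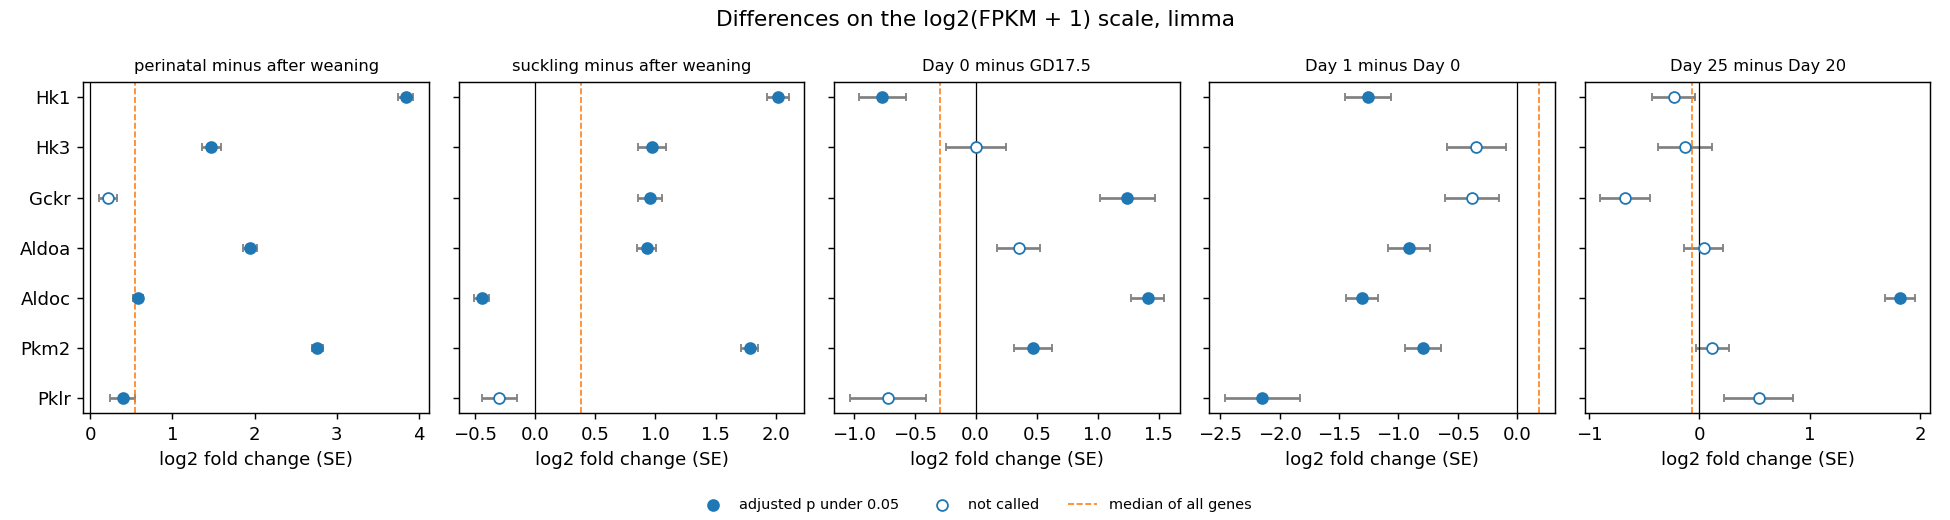
Log2 fold change on the log2(FPKM + 1) scale (horizontal axes, separate scales; bars are SE from limma) of the 7 tested genes (rows) in 5 comparisons; filled points were called at an adjusted p under 0.05, and the dashed line is the median of all 11149 genes. Pklr had the largest fall of the 7 from Day 0 to Day 1 (-2.15), and Aldoc was the one gene of the 7 called from Day 20 to Day 25 (1.82); with upper quartile scaling the perinatal differences of Gckr, Aldoc and Pklr turned to -0.40, -0.0035 and -0.24.

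Of 31 other genes of glycolysis and glucose output, 30 were tested. Between perinatal ages and ages after weaning 22 were higher and 3 lower, with a median of 0.92, where 70.2% of all genes were higher and 15.5% lower with a median of 0.54. The share higher was thus close to that of all genes. Among those higher were Slc2a1, the glucose transporter of red cells and fetal tissues (2.26 ± 0.09), Bpgm, which makes the red cell regulator 2,3-bisphosphoglycerate (2.60 ± 0.10), and the phosphofructokinases Pfkl (1.51 ± 0.08), Pfkm (1.02 ± 0.07) and Pfkp (1.08 ± 0.06). Genes of glucose output were called in both directions. Pck2, the mitochondrial phosphoenolpyruvate carboxykinase, had the largest perinatal difference of the list (2.73 ± 0.06), and Slc37a4 (0.33 ± 0.10) was also higher. Fbp2 (0.39 ± 0.08) was called higher too, but it passed the filter only through Day 1, with a mean of 1.01 FPKM. Its means at the other ages were 0.435 FPKM or less, so its call is not independent of the filter. Pck1 (-1.39 ± 0.33), G6pc (-0.88 ± 0.20) and Fbp1 (-0.34 ± 0.09) were lower as means over the perinatal ages. For G6pc and Fbp1 this came from GD17.5, where they differed from Day 60 by -5.88 and -4.29. At Days 0, 1, 3 and 5 their differences from Day 60 were above 0, and at Day 5 both were called higher (1.11 ± 0.42 and 1.09 ± 0.19). Fbp1 was also called higher at Day 1 (0.71 ± 0.19) and Day 3 (0.72 ± 0.19), and G6pc was not. Pck1 was called lower than at Day 60 at GD17.5 (-7.73 ± 0.70) and Day 0 (-2.79 ± 0.70).

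From Day 0 to Day 1, 13 of the 30 fell and 4 rose, where 7.88% of all genes fell and 23.7% rose. Pfkl (-1.64 ± 0.18), the liver phosphofructokinase, and Pfkm (-1.25 ± 0.15), the muscle form, fell beside Pklr. Mice were left out for the members only, so these falls were not checked without Day 0 replicate 1, the mouse with muscle markers. Fbp1, Ldhb and Pck1 rose, as did Fbp2, which passed the filter only through Day 1. From Day 20 to Day 25, Tpi1 (0.84 ± 0.17), Gapdh (0.60 ± 0.15) and Pgam1 (0.62 ± 0.18), enzymes of the triose part of the pathway, rose beside Aldoc, and Slc2a1 (-0.90 ± 0.18) and Pck1 (-2.50 ± 0.70) fell.

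Of 9 regulators, all tested, 4 were higher at perinatal ages than after weaning and 1 was lower, where 70.2% of all genes were higher and 15.5% lower. Higher were Myc (1.88 ± 0.13) and the splicing factors Ptbp1 (1.55 ± 0.09), Hnrnpa1 (1.39 ± 0.10) and Hnrnpa2b1 (1.41 ± 0.17), which are known to favour the M2 form of pyruvate kinase. Lower was Mlxipl (-1.31 ± 0.15), the carbohydrate-responsive factor that acts on the L start of Pklr.

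The members resembled different genes in their course over the 12 age means of log2(FPKM + 1), which share their libraries and are given without a test. Most like Hk1 were Rps6ka1, Mkrn1 and Atp1b2 (Pearson's r = 0.998 for each), and most like Pkm2 were Tmsb10, S100a11 and Sh3bgrl3 (0.997, 0.991 and 0.989). Hk3 was closest to Tmem222, Dbnl and Mtch1 (0.995, 0.993 and 0.991) and Hk2 to Ddx26b, Rbmx2 and Kit (0.987, 0.986 and 0.985). Aldoa was closest to Aldoart2, Gys1 and Aldoart1 (0.989, 0.986 and 0.985), the first and last of which are its own retrogenes. Gckr was closest to Agt, Ccbp2 and Pla1a (0.972, 0.963 and 0.961), which like it had their highest mean at Day 10. Aldoc (Ssr4, 0.937) and Pklr (Trap1, Nme3 and Dhdds, 0.922, 0.905 and 0.902) had less close neighbours. Among the members themselves, Hk1, Hk3, Aldoa and Pkm2 had r of 0.913 to 0.969 with one another, and Gckr had r of -0.413 to 0.0747 with the other members.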

How the data were processed

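RNA-Seq libraries of polyadenylated RNA from 36 livers were sequenced as paired ends. The authors mapped reads to mm9 with TopHat 1.2.0, estimated abundance with Cufflinks 1.0.3 (versions from the submitters' processing notes) and deposited 1 FPKM value per gene symbol and mouse; scaling between libraries beyond FPKM is not given in the sources used here. Counts were not used, so precision rests on the spread of 3 mice per age.

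Values were tested as log2(FPKM + 1) with limma 3.58.1 (mean-variance trend, R 4.3.3; tested on simulated data), two-sided, for genes whose mean reached 1 FPKM at some age (11149 of 21889). Ages and mice follow the sample labels. Ratios, shares and marker sums were described without a test (Python 3.11.15, pandas 2.3.3). Genes were annotated with GENCODE M1 on NCBIM37. Named genes are the 8 members, the listed glycolysis and regulator genes, the 3 highest genes of each marker list and the 3 genes most like each member; results for some of these are not reported here, and those genes were left out of the list counts and marker sums. Members and lists were chosen with earlier results of these data known. Alternatives tried: pseudocount 0.1, no filter or a filter at 5 FPKM, upper quartile or TPM scaling, a replicate block, no trend, and each mouse left out.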

Additional observations from a re-analysis of the deposited data

How the results depend on the processing

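Apart from leaving out mice, 325 of 344 recomputed values were kept. For a tested difference this meant the same direction and the same side of the threshold. Counts of members were held to a looser rule, under which a change from 6 to 4 still was kept. The ratio was kept if it moved by less than its pooled SD. Over these alternatives the count higher at perinatal ages was 4 to 7, against 6. The count of 7 came without the filter on low values, where Hk2 was tested and called too (0.46, limma adjusted p = 1.83e-11). Upper quartile scaling reversed the perinatal differences of Gckr (-0.40), Aldoc (-0.0035) and Pklr (-0.24) and the GD17.5 difference of Aldoc from Day 60 (-0.21, against 0.33). It gave 1 member lower at perinatal ages, against 0, and 2 members called from Day 20 to Day 25, against 1. The number lower at suckling ages went from 1 to 2 with upper quartile scaling, with TPM and with the replicate block, Pklr being added. Mice of different ages share only a replicate number, and the main fits did not pair them by it. The median r of the deviations of same-numbered mice was 0.126 (lowest -0.680), against -0.0476 for other numbers. Of 36 mice, 19 were closest to their own number, where 12 would be at 1 in 3. Whether a replicate number stands for a shared batch was not tested. The replicate block also gave a called fall of Pklr from GD17.5 to Day 0 (-0.72, adjusted p = 0.0433, against 0.0543). Hk3 from GD17.5 to Day 0, 0.0016 and not called, turned to -0.014 with a pseudocount of 0.1 and -0.025 with TPM.

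With each mouse left out, 1757 of 1800 values were kept by the same rules. The count higher at perinatal ages was 5 to 7, lower at perinatal ages 0, higher at suckling ages 5 to 6, lower at suckling ages 1 to 2, changed from Day 0 to Day 1 5 to 6, changed from Day 20 to Day 25 1 to 2 (2 without Day 0 replicate 2, Gckr), and changed in any age 7 to 8. The count of 8 came without GD17.5 replicate 3, where Hk2 passed the filter and was tested as well. Hk2 was also called higher there at perinatal and suckling ages (0.47 and 0.23). The perinatal difference of the Pklr to Pkm2 ratio was -2.66 to -2.42, and -2.38 with a pseudocount of 1. Pklr was called lower at suckling ages without Day 1 replicate 2, Day 10 replicate 1, Day 20 replicate 3, Day 25 replicate 2, Day 30 replicate 1, Day 45 replicate 3 or Day 60 replicate 3, and lost its perinatal call without Day 45 replicate 3 (adjusted p = 0.0501) and with TPM (0.27). Gckr passed at perinatal ages without Day 0 replicate 2, Day 1 replicate 3, Day 3 replicate 1, Day 5 replicate 3 or Day 60 replicate 3. Aldoc at GD17.5 against Day 60 was lost with TPM (0.26) and without GD17.5 replicate 1 or Day 60 replicate 1 or 2. From Day 0 to Day 1, Hk3 was called without Day 0 replicate 1 (-0.66) and Gckr without Day 0 replicate 2 (-0.68). Differences that were not called changed sign for Hk3 (-0.43 to 0.21) and Aldoa (-0.14 to 0.20) from Day 20 to Day 25 and for Hk3 from GD17.5 to Day 0 (-0.20 to 0.32). The spread was estimated over all ages together, so a mouse could alter a call between ages other than its own. Without Day 0 replicate 2, Gckr from Day 20 to Day 25 stayed at -0.67, and only its adjusted p moved (0.0380, against 0.0720). Pklr from GD17.5 to Day 0 likewise stayed at -0.72 without the single mice of Days 1, 30 or 45 that brought its call. The cause of the other changes was not tested.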
